A study of Homo sapiens with 30 samples.

Results

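The genes described here are 36 genes of glucose breakdown and of the response to low oxygen, followed in the epithelial and the endothelial side of a coculture that met 1 of 3 aerosols or clean air (CA) for 4 h. They were chosen by gene symbol, and a gene was tested in a cell line where at least 3 of its libraries had a count of 30 or more. All 36 stand in the count tables of 18460 genes, 35 were tested in A549 cells (among 11775 genes), 33 in EA.hy926 cells (among 10709 genes) and 32 in both. HK2 had at most 11 reads in any A549 library, and EGLN3, CA9 and PFKFB4 had at most 1, 3 and 29 reads in any EA.hy926 library. The least abundant gene inside the limit was ANKRD37 in A549 cells, with 9 to 99 reads and 9 of 15 libraries at 30 or more.

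A549 is a human lung adenocarcinoma line and grew at the air-liquid interface, on the apical side of the insert, where it met the aerosol directly. EA.hy926, a hybrid of umbilical vein endothelium and an A549 derivative, grew on the basolateral side of the same membrane and was not exposed directly. The aerosols were soot particles coated by photooxidation products of naphthalene (SOANAP-SP), soot particles coated by those of β-pinene (SOAβPIN-SP) and bare soot particles (SP). Each line has 4 libraries of SOANAP-SP, 4 of SOAβPIN-SP, 3 of SP and 4 of CA, and the A549 and EA.hy926 libraries of an experiment and exposure come from the same one of 15 cocultures. The labels give 1 mg/ml of soot in all aerosols and 4 mg/ml of the precursor in the coated ones. The study's methods give such loads per volume of air, and the aerosol was diluted before it reached the cells, so the unit in the labels is doubtful. All groups were kept in the same DMEM/F12-based medium with antibiotics and 15 mM HEPES.

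Glycolysis splits glucose into pyruvate, and lactate dehydrogenase turns pyruvate into lactate, which leaves the cell through monocarboxylate transporters. Hypoxia-inducible factors are pairs of an oxygen-regulated α subunit (HIF1A or EPAS1) and a constant β subunit. Prolyl hydroxylases (EGLN1, EGLN3) mark the α subunit for destruction when oxygen is present, so that in oxygen-poor cells the α subunit builds up and raises the transcription of glucose transporters, glycolytic enzymes and further genes. Endothelial cells are known to draw much of their energy from glycolysis, with PFKFB3, the maker of fructose-2,6-bisphosphate, as an accelerator of phosphofructokinase.

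The libraries held 10003314 to 16610686 counts in EA.hy926 cells and 7317041 to 15012539 in A549 cells. The experiment numbers of SOANAP-SP are 42, 44, 46 and 49, those of SOAβPIN-SP 34, 35, 37 and 38, those of SP 52, 53 and 56, and those of CA 24, 38, 42 and 53. No experiment held different aerosols, so aerosol and experiment cannot be told apart in the comparisons between aerosols. Each aerosol shared only 1 experiment with CA: 42 for SOANAP-SP, 38 for SOAβPIN-SP and 53 for SP. Against CA, exposure and experiment are thus largely mixed too. The same 4 CA libraries of a line served the comparisons with all 3 aerosols, which are therefore not independent of each other. The labels of the lines held up against defining markers in part: ENG, an endothelial receptor, had 18077 to 32061 counts in EA.hy926 libraries and 1 to 7 in 14 of 15 A549 libraries, and the epithelial cadherin CDH1 had 0 to 2 counts in EA.hy926 and 238 to 612 in A549 libraries. The endothelial genes VWF and CLDN5 were at most at 2.48 and 0.59 CPM (TMM-normalized counts, scaled to the same library total) in EA.hy926 cells, while the keratin KRT8 was at 479 to 691 CPM there. The A549 library of CA replicate 2 stood apart with 182 counts of ENG, 22 of TEK, 18 of TIE1 and 16 of ERG, which is 0.615%, 0.776%, 0.538% and 1.41% of the CPM of these genes in the EA.hy926 library of the same coculture. The part of these endothelial reads in the A549 results was not tested beyond leaving that library out, which is given beside the A549 counts of the 36 genes and was not done for the further gene lists. Of 10 epithelial markers 8 are in the tables, and their summed level in A549 cells was 16234 to 17366 CPM with SOANAP-SP, 14207 to 18777 CPM with SOAβPIN-SP and 16055 to 17631 CPM with SP, against 13849 to 15364 CPM with CA. In EA.hy926 cells the same sum was 1838 to 1973, 1845 to 2116 and 1605 to 1708 CPM, against 1570 to 1853 CPM. The sum of 11 of 12 endothelial markers was 3672 to 5093 CPM in EA.hy926 cells and 85.1 to 139 CPM in A549 cells, with overlap between aerosols and CA in both. The part of these levels in the results was not tested.

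Upstream sequences of 6 genes that the results turn on are shown to give the letters that hypoxia-inducible factors are known to bind. Each is the stretch of 250 bases before an annotated transcription start, from RefSeq (GRCh38.p14), written 5′ to 3′ on the strand of the gene, with capitals for ACGTG or GCGTG on either strand (CACGT and CACGC on the other strand; in CACGTG the matches on both strands overlap). ENO2 (chr12:6914330-6914579, plus strand), PFKFB3 (chr10:6202682-6202931, plus strand, the start with a match to ACGTG among the 2 in the table), KDM3A (chr2:86441121-86441370, plus strand) and HIF1A (chr14:61695263-61695512, plus strand) rose with every aerosol in EA.hy926 cells, while ANKRD37 (chr4:185396591-185396840, plus strand) and BHLHE40 (chr3:4979187-4979436, plus strand) fell with some aerosols. SLC2A3 rose too and is named only. ANKRD37 fell in A549 cells and BHLHE40 in both lines, and PFKFB3 fell in A549 cells with both coated aerosols.
ENO2: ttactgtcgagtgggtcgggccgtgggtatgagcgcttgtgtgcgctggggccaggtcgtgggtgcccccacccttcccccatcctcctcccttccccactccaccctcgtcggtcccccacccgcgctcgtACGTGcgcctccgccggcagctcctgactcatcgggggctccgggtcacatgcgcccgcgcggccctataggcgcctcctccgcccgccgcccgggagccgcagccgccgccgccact
PFKFB3: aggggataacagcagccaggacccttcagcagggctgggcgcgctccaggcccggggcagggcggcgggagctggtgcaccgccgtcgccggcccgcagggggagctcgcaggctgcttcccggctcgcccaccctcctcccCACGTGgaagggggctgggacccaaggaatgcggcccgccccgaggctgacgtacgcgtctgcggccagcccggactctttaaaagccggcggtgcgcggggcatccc
KDM3A: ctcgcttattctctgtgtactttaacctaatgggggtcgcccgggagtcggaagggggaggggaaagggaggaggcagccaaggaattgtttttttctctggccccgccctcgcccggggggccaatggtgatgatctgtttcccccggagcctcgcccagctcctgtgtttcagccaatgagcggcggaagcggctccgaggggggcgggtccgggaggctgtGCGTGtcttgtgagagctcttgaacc
HIF1A: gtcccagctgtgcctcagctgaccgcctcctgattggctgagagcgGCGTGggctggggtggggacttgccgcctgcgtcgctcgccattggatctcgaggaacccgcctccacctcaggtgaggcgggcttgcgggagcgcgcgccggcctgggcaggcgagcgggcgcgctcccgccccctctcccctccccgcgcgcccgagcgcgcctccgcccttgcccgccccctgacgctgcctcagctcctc
ANKRD37: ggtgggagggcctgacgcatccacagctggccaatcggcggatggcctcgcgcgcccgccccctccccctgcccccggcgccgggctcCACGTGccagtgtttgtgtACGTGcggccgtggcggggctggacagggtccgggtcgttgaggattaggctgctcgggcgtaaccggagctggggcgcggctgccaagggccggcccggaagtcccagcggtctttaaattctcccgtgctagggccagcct
BHLHE40: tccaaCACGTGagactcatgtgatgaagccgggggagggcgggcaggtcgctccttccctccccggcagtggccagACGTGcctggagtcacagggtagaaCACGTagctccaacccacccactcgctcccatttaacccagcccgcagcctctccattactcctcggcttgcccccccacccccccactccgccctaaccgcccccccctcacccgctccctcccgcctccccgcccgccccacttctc

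ANKRD37 held 3 matches and BHLHE40 held 4 matches, all of the ACGTG kind. ENO2 held 1, PFKFB3 held 2, KDM3A held 1 and HIF1A held 1, the last pair with GCGTG only. PFKFB3 rose in EA.hy926 cells and fell in A549 cells with both coated aerosols. The genes shown were chosen by their results, and a link between match number and direction was not tested. At least 1 match stood in 36 of the 61 upstream stretches of the listed genes (59.0%), against 15172 of the 35116 stretches of all genes (43.2%), and ACGTG alone in 23 (37.7%) against 6501 (18.5%). By gene, 27 of 33 listed genes with an entry held a match, against 12945 of 27305 genes. Many of the listed genes were known hypoxia targets when they were chosen, and a match is a description of the letters, not a site.

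In EA.hy926 cells, 5 of the genes rose with every aerosol: PFKFB3, ENO2, KDM3A, the glucose transporter gene SLC2A3 and HIF1A. A gene was called where edgeR's quasi-likelihood test gave an adjusted p of 0.05 or less (Benjamini-Hochberg, over all genes of the line) and the log2 fold change was at least 0.5 in size. With SOANAP-SP, 5 genes rose and 1 fell of 33 tested, against 6.26% of all tested genes called higher and 8.57% lower. With SOAβPIN-SP, 6 rose and 0 fell, against 5.04% and 6.14% of all tested genes. With SP, 5 rose and 1 fell, against 4.72% and 5.12%. The called share of the listed genes was thus 18.2% with each aerosol, beside 14.8% of all tested genes with SOANAP-SP, 11.2% with SOAβPIN-SP and 9.83% with SP. Their median log2 fold change was 0.08, 0.14 and 0.01 with SOANAP-SP, SOAβPIN-SP and SP, where that of all tested genes was 0.00, -0.01 and -0.02. These are bulk libraries, in which more RNA per cell and more cells that express a gene cannot be told apart.

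**Figure D1:**
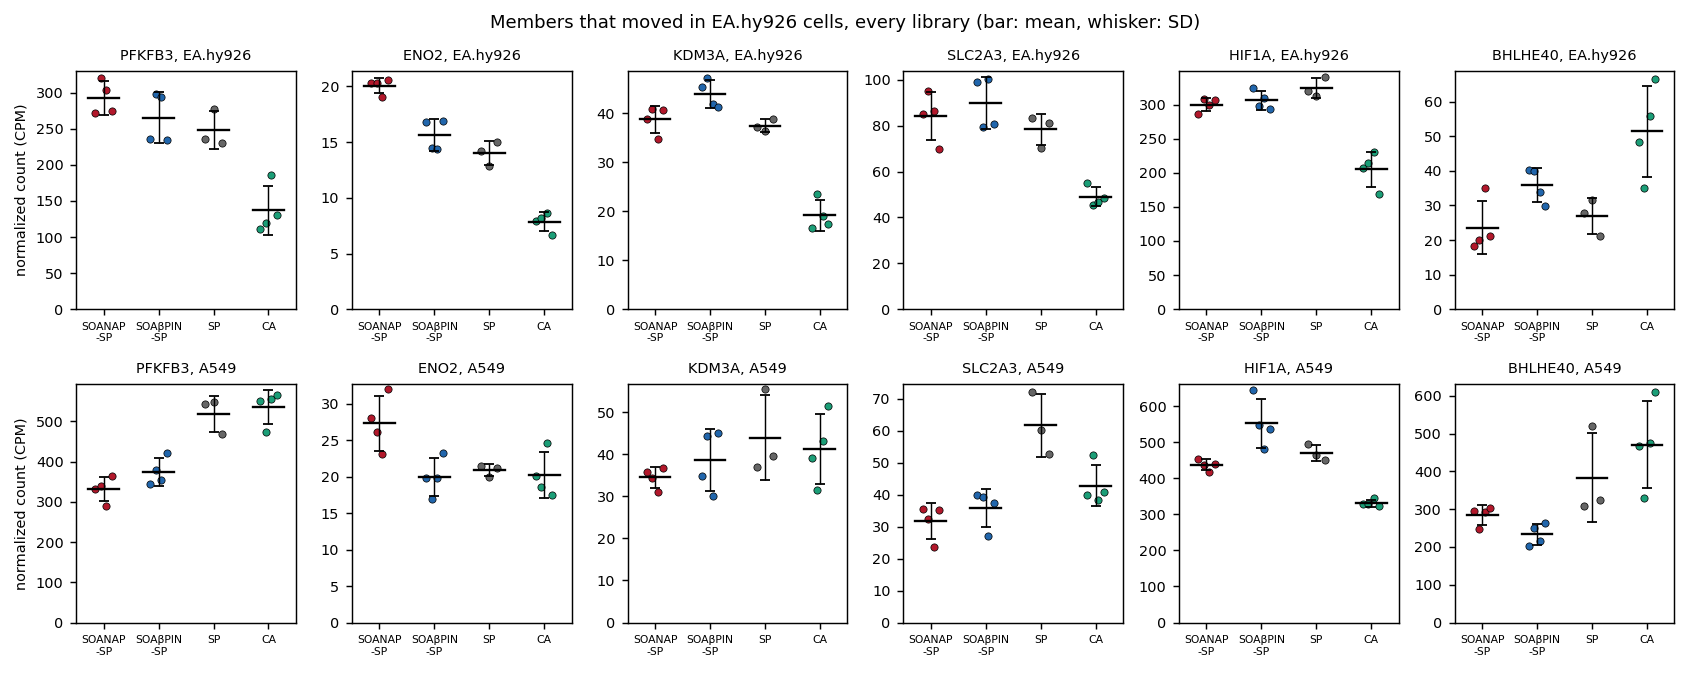
Normalized counts (CPM, y axes from 0) of PFKFB3, ENO2, KDM3A, SLC2A3, HIF1A and BHLHE40 in every library of EA.hy926 cells (top) and A549 cells (bottom), by exposure. Points are libraries, bars group means and whiskers SDs. In EA.hy926 cells all aerosol libraries of the first 5 genes lie above all CA libraries, for instance ENO2 at 12.8 to 20.5 CPM against 6.70 to 8.63 CPM.

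In A549 cells no listed gene was called with every aerosol, and 8 were called with at least 1. With SOANAP-SP, SLC16A3 and CA9 rose and PFKFB3 and BHLHE40 fell, which is 4 of 35 tested genes (11.4%), against 6.92% of all tested genes called higher and 11.3% lower (18.2% in either direction). With SOAβPIN-SP, HIF1A rose and PFKFB3, ANKRD37 and BHLHE40 fell, against 4.31% and 8.93% (13.2%). With SP, HIF1A and SLC2A3 rose and NDRG1 and ANKRD37 fell, against 2.02% and 3.97% (5.99%). Without CA replicate 2, the library with endothelial reads, the counts were 5, 4 and 4, with NDRG1 added for SOANAP-SP. The SP count was the least steady: it was 1 without SP replicate 1 or without CA replicate 4, and 2 without SP replicate 2 or CA replicate 3.

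**Figure D2:**
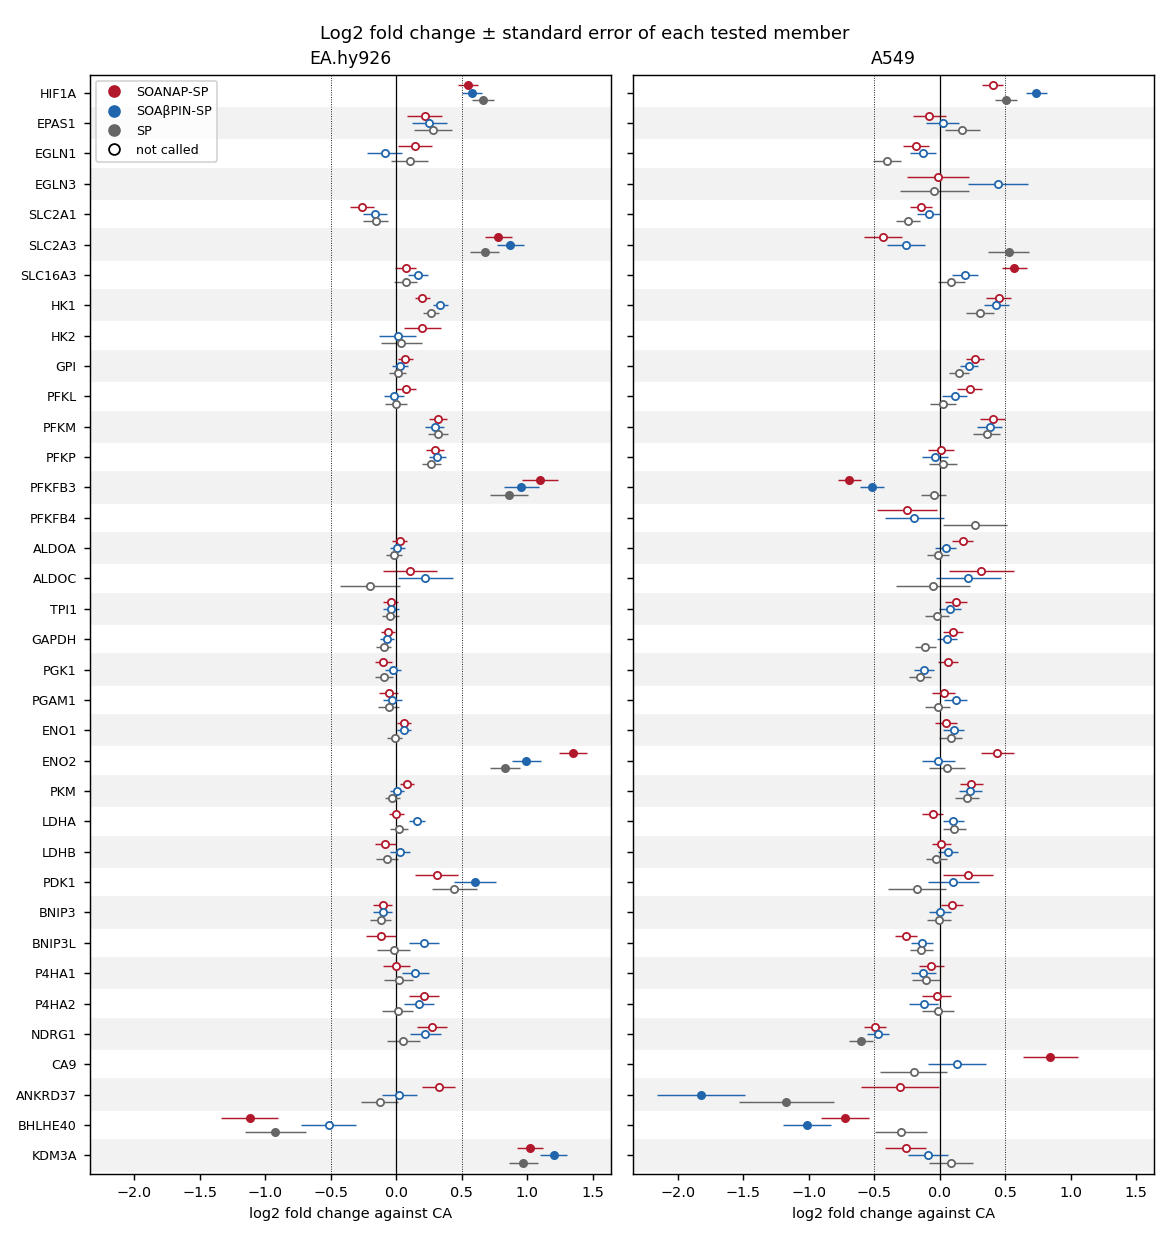
Log2 fold change against CA (x axis, ± standard error) of every tested gene of the 36 in EA.hy926 cells (left) and A549 cells (right), 1 point per aerosol. Filled points were called and open points were not, and dotted lines mark ±0.5. Most enzymes of glycolysis lie near 0 in both lines, and PFKFB3 lies on opposite sides of 0 in the 2 lines for both coated aerosols.

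HIF1A (chromosome 14, 61695513 to 61748259, plus strand), the α subunit that most cells use, had 286, 308, 299 and 306 CPM with SOANAP-SP in EA.hy926 cells, against 207, 214, 230.2 and 169 CPM with CA. It had 324, 298, 309 and 293 CPM with SOAβPIN-SP and 319, 312 and 341 CPM with SP. No aerosol library overlapped with a CA library. The log2 fold change was 0.55 ± 0.08 with SOANAP-SP (standard error, edgeR adjusted p = 2.04e-05), 0.58 ± 0.08 with SOAβPIN-SP (adjusted p = 2.26e-05) and 0.66 ± 0.08 with SP (adjusted p = 2.35e-05). The lowest CA library mattered here: without CA replicate 4 the log2 fold change was 0.47 with SOANAP-SP and 0.50, just under 0.5, with SOAβPIN-SP, with adjusted p = 2.19e-05 and 2.53e-05. In A549 cells HIF1A had 454, 438, 418 and 440.4 CPM with SOANAP-SP, 646, 547, 481 and 536 CPM with SOAβPIN-SP and 496, 464 and 451 CPM with SP, against 328, 328, 346 and 322 CPM with CA. All aerosol libraries lay above all CA libraries, and the gene was called with SOAβPIN-SP (log2 fold change 0.74 ± 0.08, edgeR adjusted p = 2.55e-06) and SP (0.51 ± 0.09, adjusted p = 0.00119), but not with SOANAP-SP, where the log2 fold change was 0.40 ± 0.08 (adjusted p = 6.96e-04). The SP value is at the limit, since it was 0.47 without SP replicate 1 and 0.49 without SOANAP-SP replicate 1, 3 or 4 or CA replicate 4.

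The antisense gene HIF1A-AS3 overlaps HIF1A, and whether counting used strand is not given in the sources used here, so reads of the pair may be mixed. In A549 cells HIF1A-AS3 had 3 to 6 reads per library with SOANAP-SP, 0 to 1 with SOAβPIN-SP and 1 to 8 with SP, against 36 to 78 with CA, while HIF1A had 19943, 26178 and 12728 summed reads against 14664. In EA.hy926 cells HIF1A-AS3 had 7 to 20, 13 to 18 and 5 to 24 reads per library with the aerosols, against 17 to 27 with CA. The part of the overlap in the HIF1A result was not tested.

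EPAS1, the other α subunit, which is strong in endothelium, was called in neither line. It averaged 488 ± 71.5 CPM with SOANAP-SP, 499 ± 38.5 CPM with SOAβPIN-SP and 509.8 ± 67.8 CPM with SP (SD, n = 4, 4 and 3) in EA.hy926 cells, against 419.5 ± 81.2 CPM with CA (n = 4). The groups overlapped, and CA replicate 4 was the low library there with 298 CPM. EGLN1, the main oxygen sensor among the prolyl hydroxylases, averaged 156 ± 11.1, 162 ± 7.47 and 134 ± 5.99 CPM with SOANAP-SP, SOAβPIN-SP and SP in A549 cells, against 177 ± 32.1 CPM with CA. Its log2 fold change with SP was -0.40 ± 0.11 (edgeR adjusted p = 0.0201), under the size limit, and CA replicate 2 held the highest level of EGLN1, 225 CPM. EGLN3, a hydroxylase that is itself a hypoxia target, was at 3.63 to 10.3 CPM in A549 libraries with no called difference. In EA.hy926 cells 1 read of EGLN3 was found in 15 libraries.

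SLC2A3 (chromosome 12, 7919230 to 8019007, minus strand) encodes the high-affinity glucose transporter GLUT3. In EA.hy926 cells it had 85.1, 95.2, 86.3 and 69.9 CPM with SOANAP-SP, 99.0, 79.2, 100.2 and 80.5 CPM with SOAβPIN-SP and 83.3, 70.5 and 81.3 CPM with SP, against 55.0, 45.5, 46.9 and 48.5 CPM with CA. All 11 aerosol libraries lay above the 4 CA libraries. The log2 fold change was 0.78 ± 0.11 with SOANAP-SP (edgeR adjusted p = 1.33e-05), 0.87 ± 0.11 with SOAβPIN-SP (adjusted p = 8.24e-06) and 0.67 ± 0.11 with SP (adjusted p = 3.25e-04). Reads of SLC2A3 made up 36.2% ± 3.72 of the reads of SLC2A1 and SLC2A3 together with SOANAP-SP, 35.9% ± 2.03 with SOAβPIN-SP and 32.9% ± 1.53 with SP (SD), against 21.6% ± 2.42 with CA. SLC2A1, the basal glucose transporter GLUT1, was not called in any comparison of an aerosol with CA, and its log2 fold change ran from -0.26 to -0.08 over both lines and all aerosols.

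In A549 cells SLC2A3 took a different course. It had 35.7, 32.4, 23.6 and 35.1 CPM with SOANAP-SP, 39.9, 39.3, 27.2 and 37.4 CPM with SOAβPIN-SP and 72.3, 60.2 and 52.7 CPM with SP, against 39.9, 52.4, 38.4 and 40.8 CPM with CA. The SP libraries lay above and the SOANAP-SP libraries below all CA libraries. Only the SP difference was called (log2 fold change 0.53 ± 0.15, edgeR adjusted p = 0.0344), and it lost its call without SP replicate 1 (0.40, adjusted p = 0.192), SP replicate 2 (0.55, adjusted p = 0.062), CA replicate 1 (0.49, adjusted p = 0.0836), CA replicate 3 (0.48, adjusted p = 0.0729) or CA replicate 4 (0.50, adjusted p = 0.0747). With SOANAP-SP the log2 fold change was -0.43 ± 0.15 (adjusted p = 0.0265), under the size limit. Reads of SLC2A3 and its near-identical relative SLC2A14 can be lost or split, since unique reads alone were counted.

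SLC16A3, the lactate exporter MCT4, was called against CA in A549 cells with SOANAP-SP. It had 103, 104, 118 and 111 CPM with SOANAP-SP, against 75.0, 75.2, 77.7 and 66.4 CPM with CA, with no overlap (log2 fold change 0.57 ± 0.10, edgeR adjusted p = 1.87e-04). With library totals alone in place of TMM scaling the log2 fold change was 0.47 (adjusted p = 7.14e-04), under the size limit. The other aerosols gave 68.9 to 99.6 CPM with SOAβPIN-SP and 72.5 to 82.8 CPM with SP, and neither was called. The SOANAP-SP libraries lay above those of both other aerosols, but SLC16A3 was not called in the direct comparisons with them. In EA.hy926 cells, where SLC16A3 was at 217 to 296 CPM, no aerosol changed it past the limits. CSNK1D overlaps SLC16A3 on the opposite strand, with 54018 reads beside 14309 of SLC16A3 in A549 cells.

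PFKFB3 (chromosome 10, 6144934 to 6254644, plus strand) moved in opposite directions in the 2 lines. In EA.hy926 cells it had 273, 319.8, 304 and 275 CPM with SOANAP-SP, 235, 298, 294 and 234 CPM with SOAβPIN-SP and 236, 278 and 230.0 CPM with SP, against 111, 119.9, 186 and 130.4 CPM with CA. All aerosol libraries lay above all CA libraries, of which CA replicate 3 was the highest. The log2 fold change was 1.10 ± 0.14 with SOANAP-SP (edgeR adjusted p = 1.33e-05), 0.96 ± 0.14 with SOAβPIN-SP (adjusted p = 9.52e-05) and 0.86 ± 0.15 with SP (adjusted p = 5.95e-04). In A549 cells PFKFB3 had 333, 339.9, 290.4 and 365 CPM with SOANAP-SP, 343, 379, 355 and 421 CPM with SOAβPIN-SP and 542, 548 and 468 CPM with SP, against 549.8, 472, 557 and 565 CPM with CA. The libraries of both coated aerosols lay below all CA libraries and those of SP lay among them. PFKFB3 fell by 0.69 ± 0.09 on the log2 scale with SOANAP-SP (edgeR adjusted p = 1.16e-05) and by 0.52 ± 0.09 with SOAβPIN-SP (adjusted p = 2.64e-04), and with SP its log2 fold change was -0.05 ± 0.10. The SOAβPIN-SP value sits at the size limit and was between -0.497 and -0.475 without SOAβPIN-SP replicate 1 or 3 or CA replicate 3 or 4, just under the limit, with adjusted p at or below 0.00184 each time. PFKFB3 was also just under the limit with library totals alone in place of TMM scaling (-0.478, edgeR adjusted p = 6.50e-04) and with no filter on low counts (-0.494, adjusted p = 1.83e-04). PFKFB4, its relative, had at most 87 reads in an A549 library, at 0.920% to 1.74% of the reads of the pair in A549 cells with SOANAP-SP and 0.831% to 1.13% with CA.

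The enzymes that carry the flux moved little. None of the 13 genes for glucose-6-phosphate isomerase, phosphofructokinase, aldolase A, triosephosphate isomerase, GAPDH, phosphoglycerate kinase and mutase, enolase 1, pyruvate kinase and lactate dehydrogenase (GPI, PFKL, PFKM, PFKP, ALDOA, TPI1, GAPDH, PGK1, PGAM1, ENO1, PKM, LDHA and LDHB) was called by edgeR with any aerosol in either line, with 2 to 3 of them at an unadjusted p under 0.05 in EA.hy926 cells and 2 to 5 in A549 cells. Some passed the adjusted p of 0.05 and missed only the size limit. These were 2 with each aerosol in EA.hy926 cells, and 3, 2 and 1 with SOANAP-SP, SOAβPIN-SP and SP in A549 cells. In EA.hy926 cells their log2 fold changes ran from -0.10 (PGK1) to 0.32 (PFKM) with SOANAP-SP, from -0.07 (GAPDH) to 0.31 (PFKP) with SOAβPIN-SP and from -0.10 (GAPDH) to 0.32 (PFKM) with SP, with standard errors of 0.05 to 0.08. In A549 cells they ran from -0.05 (LDHA) to 0.40 (PFKM), from -0.12 (PGK1) to 0.38 (PFKM) and from -0.15 (PGK1) to 0.36 (PFKM), with standard errors of 0.07 to 0.11. PFKM, the muscle-type phosphofructokinase, had an adjusted p under 0.05 in all 6 comparisons, with 0.29 in size at the least (edgeR adjusted p = 0.0043 with SOAβPIN-SP in EA.hy926 cells), and stayed under the size limit. SENP1 overlaps PFKM on the opposite strand. HK1, which starts glycolysis by phosphorylating glucose, also stayed under the size limit. Its largest differences in each line were 0.45 ± 0.10 (edgeR adjusted p = 0.0013) with SOANAP-SP in A549 cells and 0.34 ± 0.06 (adjusted p = 3.0e-04) with SOAβPIN-SP in EA.hy926 cells. With SP in A549 cells its log2 fold change was 0.31, and it did not reach an adjusted p of 0.05.

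Summed over the 13 enzymes, the level was 20489 ± 465 CPM with SOANAP-SP, 20556 ± 596 CPM with SOAβPIN-SP and 19887 ± 435 CPM with SP (SD) in EA.hy926 cells, against 20459.5 ± 653 CPM with CA. In A549 cells it was 20778 ± 433, 20696 ± 2019 and 19771 ± 1146 CPM, against 18976 ± 921 CPM with CA. The EA.hy926 groups overlap, and in A549 cells the SOANAP-SP libraries, at 20135 to 21057 CPM, lie just above the CA libraries, at 17874 to 20130 CPM. Read counts of GAPDH, PGK1, ENO1, LDHA, TPI1, ALDOA and PGAM1 can be lowered by their processed pseudogenes, since reads with several matches were left out.

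ENO2 (chromosome 12, 6913745 to 6923698, plus strand), the neuronal-type enolase and a known hypoxia target, showed the largest rise of the list with SOANAP-SP in EA.hy926 cells. It had 20.3, 20.3, 19.1 and 20.5 CPM with SOANAP-SP, 16.8, 14.5, 14.4 and 16.9 CPM with SOAβPIN-SP and 14.2, 12.8 and 15.0 CPM with SP, against 7.92, 8.22, 8.63 and 6.70 CPM with CA. No aerosol library came near a CA library, and the SOANAP-SP libraries lay above those of both other aerosols. The log2 fold change was 1.35 ± 0.11 with SOANAP-SP (edgeR adjusted p = 3.51e-08), 0.99 ± 0.11 with SOAβPIN-SP (adjusted p = 4.48e-06) and 0.83 ± 0.12 with SP (adjusted p = 7.85e-05). Even so, ENO2 gave 0.588% ± 0.0314 of the enolase reads (ENO1 and ENO2) with SOANAP-SP, 0.458% ± 0.0344 with SOAβPIN-SP and 0.431% ± 0.0247 with SP, against 0.241% ± 0.0292 with CA. In A549 cells ENO2 had 27.99, 26.0, 23.1 and 31.9 CPM with SOANAP-SP, 16.9 to 23.2 CPM with SOAβPIN-SP and 19.9 to 21.5 CPM with SP, against 20.1, 18.6, 24.6 and 17.4 CPM with CA. Its log2 fold change with SOANAP-SP was 0.44 ± 0.12 (edgeR adjusted p = 0.00949), under the size limit. LRRC23 overlaps ENO2 on the same strand, with 333 reads beside 2611 of ENO2 in all EA.hy926 libraries. In all A549 libraries LRRC23 had 2458 reads beside 3651 of ENO2. The part of this overlap in the ENO2 levels and in the difference between the lines was not tested.

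PDK1, which blocks the entry of pyruvate into the citric acid cycle by phosphorylating pyruvate dehydrogenase, had 7.77, 7.80, 6.36 and 6.66 CPM with SOANAP-SP, 10.8, 8.02, 7.43 and 8.83 CPM with SOAβPIN-SP and 6.995, 7.40 and 9.34 CPM with SP in EA.hy926 cells, against 6.01, 4.30, 5.72 and 6.96 CPM with CA. The SOAβPIN-SP and SP libraries lay above the CA libraries, and the gene was called with SOAβPIN-SP alone (log2 fold change 0.60 ± 0.16, edgeR adjusted p = 0.0103). That call ended without SOAβPIN-SP replicate 1 (0.49, adjusted p = 0.0426) or CA replicate 2 (0.49, adjusted p = 0.037). PDK1-AS1, on the opposite strand, had 269 reads beside 1327 of PDK1 in this line.

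KDM3A (chromosome 2, 86440647 to 86492716, plus strand), a histone H3K9 demethylase that needs oxygen and is a known hypoxia target, had 38.9, 40.8, 34.8 and 40.6 CPM with SOANAP-SP, 45.4, 47.1, 41.8 and 41.2 CPM with SOAβPIN-SP and 37.2, 36.3 and 38.8 CPM with SP in EA.hy926 cells, against 16.6, 23.6, 19.1 and 17.3 CPM with CA. The groups did not overlap. The log2 fold change was 1.02 ± 0.10 with SOANAP-SP (edgeR adjusted p = 3.80e-07), 1.20 ± 0.10 with SOAβPIN-SP (adjusted p = 2.29e-07) and 0.97 ± 0.11 with SP (adjusted p = 7.41e-06). In A549 cells KDM3A averaged 34.5 ± 2.44, 38.6 ± 7.31 and 43.9 ± 10.01 CPM with SOANAP-SP, SOAβPIN-SP and SP (SD), against 41.3 ± 8.26 CPM with CA, and the groups overlapped.

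BHLHE40 (chromosome 3, 4979437 to 4985323, plus strand), a transcriptional repressor that hypoxia induces in many cells, was the listed gene that fell in both lines. In EA.hy926 cells it had 18.3, 19.9, 35.1 and 21.1 CPM with SOANAP-SP, 40.2, 39.9, 33.8 and 29.95 CPM with SOAβPIN-SP and 27.8, 31.7 and 21.2 CPM with SP, against 48.3, 35.1, 55.8 and 66.4 CPM with CA. Only the SP libraries lay entirely below the CA libraries. SOANAP-SP replicate 3 was level with CA replicate 2 (35.1 CPM), and SOAβPIN-SP replicates 1 and 2 (40.2 and 39.9 CPM) lay above that CA library. BHLHE40 fell by 1.12 ± 0.22 on the log2 scale with SOANAP-SP (edgeR adjusted p = 0.00105) and by 0.93 ± 0.23 with SP (adjusted p = 0.0117), and with SOAβPIN-SP the value was -0.52 ± 0.21 (adjusted p = 0.0934). Without SP replicate 3 the SP value was -0.79 (adjusted p = 0.0579). In A549 cells BHLHE40 had 296, 247, 293 and 303 CPM with SOANAP-SP, 203, 250.4, 215 and 264 CPM with SOAβPIN-SP and 307, 519.8 and 324 CPM with SP, against 468, 329, 476 and 611 CPM with CA. The coated aerosols lay below all CA libraries, with a fall of 0.73 ± 0.18 with SOANAP-SP (edgeR adjusted p = 0.00688) and of 1.01 ± 0.18 with SOAβPIN-SP (adjusted p = 0.00102).

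Among the genes called in A549 cells only, CA9 (chromosome 9, 35673928 to 35681159, plus strand), a membrane carbonic anhydrase widely used as a hypoxia marker, had 5.11, 4.55, 4.92 and 5.38 CPM with SOANAP-SP, against 3.00, 2.75, 2.77 and 2.58 CPM with CA. The groups did not overlap, and the log2 fold change was 0.84 ± 0.21 (edgeR adjusted p = 0.00425). SOAβPIN-SP gave 3.76, 2.68, 3.49 and 2.46 CPM and SP 3.31, 1.39 and 2.40 CPM, both around the CA values. These levels rest on 11 to 62 reads of CA9 per library, and ARHGEF39 overlaps on the opposite strand with 893 reads beside 558 in all A549 libraries.

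ANKRD37 (chromosome 4, 185396021 to 185400628, plus strand), a small ankyrin-repeat gene and known HIF target, showed the largest fall in A549 cells. It had 2.83, 3.23, 7.27 and 5.12 CPM with SOANAP-SP, 1.17, 1.57, 1.93 and 1.55 CPM with SOAβPIN-SP and 2.92, 3.15 and 1.37 CPM with SP, against 3.82, 3.78, 6.81 and 7.99 CPM with CA. The SOAβPIN-SP and SP libraries lay below all CA libraries. ANKRD37 fell by 1.82 ± 0.34 on the log2 scale with SOAβPIN-SP (edgeR adjusted p = 6.44e-04) and by 1.17 ± 0.36 with SP (adjusted p = 0.046). The SP call ended when SP replicate 1, 2 or 3 was left out (adjusted p = 0.0979, 0.0598 and 0.197), CA replicate 3 or 4 (0.084 and 0.126) or any 1 library of SOAβPIN-SP (adjusted p of 0.053 to 0.0576, with the fold change kept at -1.17). It also ended with limma-voom (adjusted p = 0.0657), and in edgeR with the compared groups alone (0.0648) or the replicate block (0.0808). In all, 12 of 22 alternatives ended the call. UFSP2 overlaps ANKRD37 on the opposite strand. NDRG1, a stress- and hypoxia-induced gene on chromosome 8, had 94.8, 92.7, 84.8 and 89.6 CPM with SOANAP-SP, 82.1, 90.9, 92.1 and 102 CPM with SOAβPIN-SP and 82.1, 93.3 and 76.2 CPM with SP in A549 cells, against 122, 123, 135 and 128 CPM with CA. All aerosol libraries lay below all CA libraries, and the fall of 0.60 ± 0.09 with SP was called (edgeR adjusted p = 5.15e-04), while those with SOANAP-SP (-0.49 ± 0.08, adjusted p = 1.62e-04) and SOAβPIN-SP (-0.47 ± 0.08, adjusted p = 3.08e-04) were just under the size limit.

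**Figure D3:**
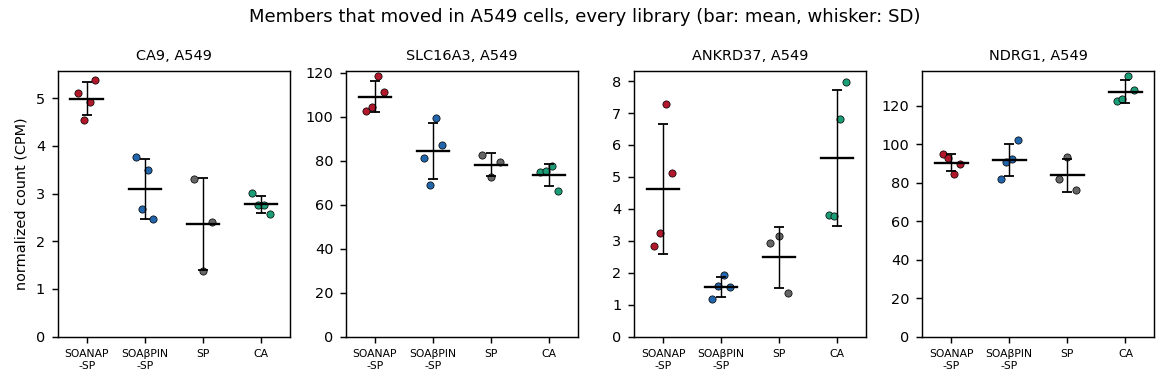
Normalized counts (CPM, y axes from 0) of CA9, SLC16A3, ANKRD37 and NDRG1 in every A549 library, by exposure, with group means (bars) and SDs (whiskers). CA9 and SLC16A3 are highest with SOANAP-SP (4.55 to 5.38 and 103 to 118 CPM), ANKRD37 lowest with SOAβPIN-SP (1.17 to 1.93 CPM), and NDRG1 is below CA in all aerosol libraries.

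The other hypoxia-inducible genes of the list, BNIP3 and BNIP3L, which mark mitochondria for removal, and P4HA1 and P4HA2, which hydroxylate collagen prolines, were called with no aerosol in either line. Their log2 fold changes ran from -0.26 (BNIP3L with SOANAP-SP in A549 cells) to 0.21 (BNIP3L with SOAβPIN-SP and P4HA2 with SOANAP-SP in EA.hy926 cells). In all, 25 of the 36 genes were called with no aerosol.

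Within single experiments, where an aerosol and CA were run together, each called gene moved the same way as in the full comparison, in 30 of 30 cases. Each case rests on 1 aerosol and 1 CA library, with no test, and these libraries are part of the full comparison. For all cases but BHLHE40 with SOANAP-SP in EA.hy926 cells, aerosol and CA libraries did not overlap. The direction of any pair was then fixed in advance, so only the sizes add information. In experiment 42, PFKFB3 in EA.hy926 cells differed by 0.55 on the log2 scale (273 CPM with SOANAP-SP, against 186 CPM with CA), less than the 1.10 over all libraries, and HIF1A by 0.32 (286 against 230.2 CPM). In experiment 38, A549 cells gave -0.17 for PFKFB3 (421 CPM with SOAβPIN-SP, against 472 CPM with CA) and -0.32 for BHLHE40 (264 against 329 CPM), smaller than over all libraries. The A549 CA library of experiment 38 is CA replicate 2, the one with endothelial reads. It held the lowest level of both genes among the A549 CA libraries. PDK1 in EA.hy926 cells gave 1.04 in experiment 38 (8.83 against 4.30 CPM), larger than the 0.60 over all libraries.

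The response to the aerosols differed between the lines for 6 listed genes with SOANAP-SP, 6 with SOAβPIN-SP and 4 with SP, of 36 tested, by the interaction of line and exposure in a fit to all 30 libraries. Of all 12584 genes in that fit, 11.4%, 10.1% and 3.38% were called, with the response in EA.hy926 cells the higher for 7.01%, 6.01% and 2.34% and the lower for 4.39%, 4.14% and 1.04%. Of the listed genes it was the higher for 5, 6 and 4 and the lower for 1, 0 and 0. PFKFB3 differed with each aerosol, with the log2 fold change in EA.hy926 cells above that in A549 cells by 1.78 ± 0.16 with SOANAP-SP (edgeR adjusted p = 5.10e-09), 1.46 ± 0.16 with SOAβPIN-SP (adjusted p = 3.13e-07) and 0.90 ± 0.17 with SP (adjusted p = 0.00204). KDM3A differed by 1.27 ± 0.19, 1.27 ± 0.19 and 0.88 ± 0.20 (adjusted p = 1.84e-05, 1.78e-05 and 0.00963) and ENO2 by 0.89 ± 0.17, 0.98 ± 0.17 and 0.77 ± 0.18 (adjusted p = 3.15e-04, 1.39e-04 and 0.0121). NDRG1 differed by 0.76 ± 0.14, 0.67 ± 0.14 and 0.65 ± 0.15 (adjusted p = 3.77e-04, 0.00148 and 0.0118), and it was lower in A549 cells rather than called in EA.hy926 cells, where it had 260.1 to 410.2 CPM with the aerosols and 264 to 318 CPM with CA. SLC2A3 differed with the coated aerosols alone, by 1.20 ± 0.19 and 1.10 ± 0.19 (adjusted p = 3.47e-05 and 1.08e-04), and by 0.14 ± 0.20 with SP. SLC16A3 was the gene with the larger response in A549 cells (-0.51 ± 0.13 with SOANAP-SP, adjusted p = 0.00675), and ANKRD37 differed with SOAβPIN-SP by 1.82 ± 0.35 (adjusted p = 5.56e-04). For HIF1A the differences were 0.13 ± 0.11, -0.18 ± 0.11 and 0.15 ± 0.12, which did not pass the test (adjusted p of 0.308 to 0.57). With the coculture as a block the counts were again 6, 6 and 4, and without the A549 library with endothelial reads they were 6, 6 and 4.

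**Figure D4:**
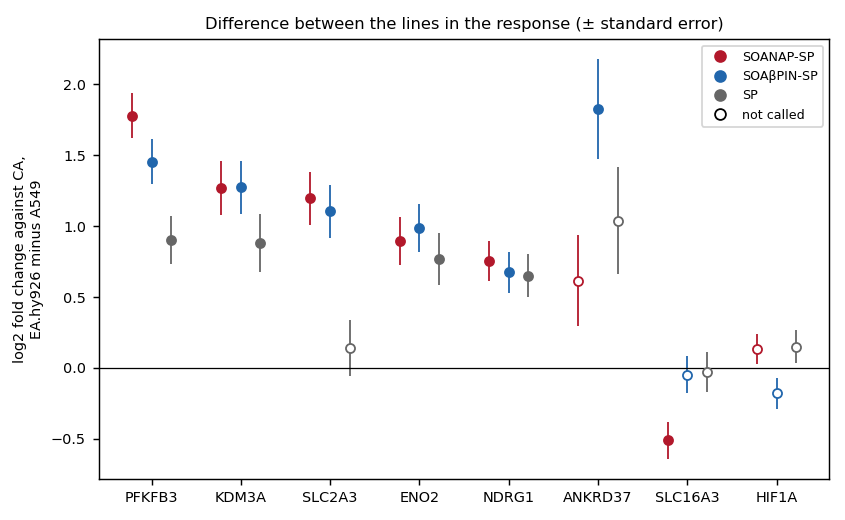
Log2 fold change against CA in EA.hy926 cells minus that in A549 cells (y axis, ± standard error) for 8 genes, 1 point per aerosol. Filled points were called and open points were not. PFKFB3 reaches 1.78 with SOANAP-SP and 0.90 with SP, SLC16A3 lies at -0.51 with SOANAP-SP, and HIF1A lies near 0 with all aerosols.

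Between aerosols, few listed genes differed, and experiment and aerosol cannot be told apart there. In A549 cells, CA9 was higher with SOANAP-SP than with SOAβPIN-SP (log2 fold change 0.71 ± 0.21, edgeR adjusted p = 0.0231) and so was ANKRD37 (1.52 ± 0.35, adjusted p = 0.00687), 2 of 35 genes against 3.45% of all tested genes called higher and 4.03% lower (7.48% in either direction). The CA9 call ended without SOAβPIN-SP replicate 2 or SOANAP-SP replicate 4, which left 1 called gene, and without CA replicate 2 the count was again 2. SOANAP-SP against SP gave a higher CA9 (1.04 ± 0.24, adjusted p = 0.0109) and a lower SLC2A3 (-0.96 ± 0.16, adjusted p = 0.00163) and PFKFB3 (-0.65 ± 0.10, adjusted p = 8.62e-04), against 2.84% higher and 4.29% lower among all tested genes (7.13% in either direction). Without CA replicate 2 these were again 3 genes. SOAβPIN-SP against SP called 0 listed genes and 0.0679% of all genes, with 5 listed genes at an unadjusted p under 0.05. Of these SLC2A3 had a log2 fold change of -0.78 ± 0.15 (edgeR adjusted p = 0.0595) and PFKFB3 of -0.47 ± 0.10 (adjusted p = 0.0618). With the replicate number as a block SLC2A3 and PFKFB3 were called, 2 genes. Same-numbered libraries of this comparison came from different experiments (34 and 52, 35 and 53, 37 and 56), so the number is not a known pairing. limma-voom called 1 (SLC2A3) and DESeq2 2 (SLC2A3 and BHLHE40). The count was 2 without SP replicate 3 and 1 without SOAβPIN-SP replicate 4, SOANAP-SP replicate 3 or CA replicate 2, 3 or 4.

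In EA.hy926 cells, ENO2 was higher with SOANAP-SP than with SP (log2 fold change 0.52 ± 0.11, edgeR adjusted p = 0.0262), the 1 called gene of 33, against 0.43% of all tested genes called higher, 0.364% lower and 0.794% in either direction. It was under the limits without SOANAP-SP replicate 1, 2 or 4 or SP replicate 1 or 2. SOANAP-SP against SOAβPIN-SP called 0 listed genes and 0.598% of all genes, 0.261% higher and 0.336% lower (6 listed genes at an unadjusted p under 0.05, with BHLHE40 called without SOANAP-SP replicate 3), and SOAβPIN-SP against SP called 0 listed genes and 0 genes in all (2 at an unadjusted p under 0.05). For PFKFB3 the difference was 0.14 ± 0.13 for SOANAP-SP against SOAβPIN-SP and 0.24 ± 0.15 for SOANAP-SP against SP, and for KDM3A -0.18 ± 0.10 and 0.05 ± 0.11. A miss of the threshold does not show that the aerosols act alike.

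Under clean air the lines already differed for most of the list. EA.hy926 cells were higher for 13 and lower for 13 of the 36 genes, against 32.9% of all 12584 genes called higher and 37.9% lower, so that the list differed about as often as genes at large (72.2% and 70.8%). Without the A549 library with endothelial reads 25 genes were called, with ALDOC and EPAS1 no longer among them and TPI1 added. Line and position in the insert cannot be told apart in this comparison. HK2, the inducible hexokinase, had 47.9 ± 8.59 CPM in EA.hy926 cells and 0.703 ± 0.430 CPM in A549 cells (SD, n = 4 each, scaled over all 30 libraries), a ratio of 69.1 from 2414 and 29 reads (exact 95% interval 48.0 to 103, for counting error only). HK1 had 291 ± 15.6 and 48.8 ± 3.37 CPM (log2 fold change 2.58 ± 0.08, edgeR adjusted p = 3.99e-24). HK2 made up 14.1% ± 2.25 of the hexokinase reads in EA.hy926 cells and 1.43% ± 0.868 in A549 cells under CA, with 10.6% to 17.8% and 0.617% to 1.90% in all aerosol libraries. SLC16A3 was higher in EA.hy926 cells (219 ± 12.1 and 77.4 ± 5.15 CPM, log2 fold change 1.501 ± 0.09, adjusted p = 2.59e-16), and so were NDRG1 (1.03 ± 0.10, adjusted p = 2.88e-11) and PFKM (0.78 ± 0.08, adjusted p = 2.71e-10).

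Lower in EA.hy926 cells than in A549 cells under CA were EGLN3, CA9, BHLHE40, PFKFB3, PFKFB4, ENO2, EGLN1, KDM3A, BNIP3L, SLC2A1, PKM, HIF1A and GPI. EGLN3 had 0 reads in the 4 EA.hy926 CA libraries and 6.67 ± 2.11 CPM in A549 cells, so it was at least 28.02-fold lower in EA.hy926 cells, taken against a floor of 3 reads per library. CA9 had 3 and 123 summed reads, a ratio of 0.0203 (exact 95% interval 0.00412 to 0.0606). BHLHE40 had 48.2 ± 12.3 and 496 ± 122 CPM (log2 fold change -3.36 ± 0.23, edgeR adjusted p = 6.63e-13) and PFKFB3 128 ± 29.7 and 564 ± 46.4 CPM (-2.14 ± 0.12, adjusted p = 1.79e-17). The rises of PFKFB3, ENO2, KDM3A and HIF1A in EA.hy926 cells with the aerosols thus started from lower CA levels than in A549 cells, and SLC2A3 from 46.03 ± 5.04 and 45.1 ± 6.63 CPM, where no difference was called (log2 fold change 0.03 ± 0.13).

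**Figure D5:**
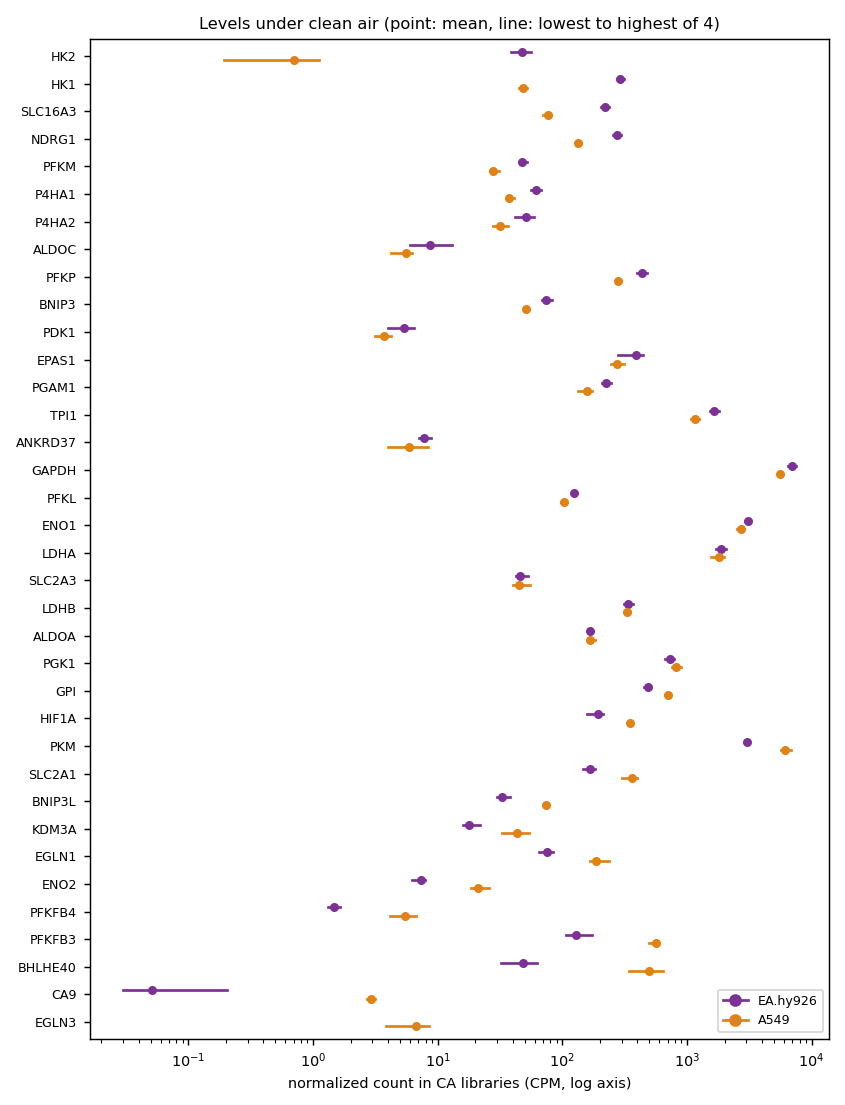
Normalized counts under CA (CPM, log x axis) of the 36 genes in EA.hy926 and A549 cells, ordered by the log2 fold change between the lines, with means (points) and the lowest to highest of 4 libraries (lines). EGLN3 is at 0 in EA.hy926 cells and not drawn, and the line of CA9 there, which reaches 0, is cut. HK2 at the top is at 47.9 and 0.703 CPM, and BHLHE40 near the bottom at 48.2 and 496 CPM.

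Per kilobase of merged exons GAPDH was highest in both lines, with 3108 ± 170 CPM per kilobase in EA.hy926 cells and 2197 ± 82.5 in A549 cells under CA (SD, n = 4). TPI1 (652 ± 48.3) and ENO1 (626 ± 15.4) came next in EA.hy926 cells, where they did not differ beyond their spread, then PKM (380.0 ± 10.5) and LDHA (334 ± 24.6), whereas PKM (684 ± 48.9) was second in A549 cells, ahead of ENO1 (492 ± 21.1) and TPI1 (412 ± 23.4). Of the regulators, PFKFB3 stood at 22.4 ± 5.56 CPM per kilobase in EA.hy926 cells and 87.7 ± 6.996 in A549 cells, and HIF1A at 39.8 ± 5.05 and 64.3 ± 1.95. ENO2 stood at 1.84 ± 0.194 and 4.71 ± 0.731, far under ENO1.

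Other genes of the same pathways were taken from lists written for this report, and their counts stand beside the called shares of all tested genes. In EA.hy926 cells these shares were 6.26% higher and 8.57% lower with SOANAP-SP, 5.04% and 6.14% with SOAβPIN-SP and 4.72% and 5.12% with SP, and in A549 cells 6.92% and 11.3%, 4.31% and 8.93%, and 2.02% and 3.97%. Of 11 further regulators of hypoxia-inducible factors, 9 were tested in EA.hy926 cells, and 3, 2 and 2 were called with SOANAP-SP, SOAβPIN-SP and SP. Of all tested genes 14.8%, 11.2% and 9.83% were called in either direction. CITED2, which competes with HIF1A for its coactivators, rose with SOANAP-SP (log2 fold change 1.16, edgeR adjusted p = 1.4e-07), SOAβPIN-SP (0.87) and SP (0.63), and HIF1AN, the asparagine hydroxylase that blocks the same contact, fell by 0.96, 0.74 and 0.77 on the log2 scale. VHL, the ubiquitin ligase part that recognises hydroxylated HIF1A, fell by 0.69 with SOANAP-SP (adjusted p = 0.020). In A549 cells edgeR called 0 of 10 tested regulators with any aerosol, with 6, 3 and 3 at an unadjusted p under 0.05.

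Of 34 further hypoxia-inducible genes, 28 were tested in EA.hy926 cells and 3 rose and 3 fell with SOANAP-SP, 2 rose and 1 fell with SOAβPIN-SP, and 2 rose and 1 fell with SP, where 14.8%, 11.2% and 9.83% of all tested genes were called in either direction. VEGFA, the angiogenic growth factor, rose with each aerosol (log2 fold change 1.08, 0.97 and 0.87), while HILPDA, a lipid droplet gene induced by hypoxia, fell by 1.18, 0.64 and 0.70. RSBN1 rose by 0.99 and the vasodilator gene ADM by 0.78 with SOANAP-SP. In A549 cells 32 were tested, and 6 rose and 9 fell with SOANAP-SP, 3 rose and 6 fell with SOAβPIN-SP, and 2 rose and 0 fell with SP, where 18.2%, 13.2% and 5.99% of all tested genes were called. The lipoprotein receptor gene VLDLR fell by 1.14 on the log2 scale with SOANAP-SP and TMEM45A by 1.13 (edgeR adjusted p = 6.7e-04), while WSB1 rose by 1.07. The median log2 fold change of the list was -0.05, 0.02 and -0.05 in EA.hy926 cells and -0.02, -0.08 and -0.05 in A549 cells.

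Of 29 further isoenzymes of glycolysis and gluconeogenesis, 10 were tested in EA.hy926 and 12 in A549 cells. With SOANAP-SP, SOAβPIN-SP and SP, 2, 3 and 2 were called in EA.hy926 cells, against 14.8%, 11.2% and 9.83% of all tested genes. In A549 cells 3, 1 and 1 were called, against 18.2%, 13.2% and 5.99%. TIGAR, a phosphatase that lowers fructose-2,6-bisphosphate and so works against PFKFB3, fell with every aerosol in both lines, by 1.12, 1.01 and 0.76 on the log2 scale in EA.hy926 cells and by 1.19, 0.91 and 0.91 in A549 cells (edgeR adjusted p of 2.1e-07 to 9.5e-04). It had 10.6 to 13.6 CPM with SOANAP-SP, 12.03 to 14.9 CPM with SOAβPIN-SP and 15.7 to 16.6 CPM with SP in EA.hy926 cells, against 24.5 to 30.7 CPM with CA, with no overlap. SLC2A12, a further glucose transporter, fell in EA.hy926 cells by 1.27, 0.96 and 1.08. In A549 cells LDHD and BPGM rose with SOANAP-SP, by 0.72 and 0.50. Of 31 genes of pyruvate entry and the citric acid cycle, edgeR called 0 of 30 tested in EA.hy926 cells, with 6, 7 and 3 at an unadjusted p under 0.05. In A549 cells 4 rose and 1 fell with SOANAP-SP, 6 rose and 2 fell with SOAβPIN-SP and 2 rose with SP, of 31 tested, among them the pyruvate dehydrogenase kinase PDK4 (0.75 with SOANAP-SP), the pyruvate carboxylase PC (0.65) and OGDH (0.51), while the pyruvate dehydrogenase phosphatase PDP1 fell by 0.69. Of 8 genes of the pentose phosphate pathway, edgeR called 0 in either line with any aerosol, with 0 to 2 at an unadjusted p under 0.05 in EA.hy926 cells and 1 to 5 in A549 cells.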

How the data were processed

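Poly-A RNA-seq was made from both cell lines of 15 cocultures. Per the study's methods, reads were trimmed with cutadapt, aligned with STAR (2.7.3a in the submitters' processing notes) to the human genome, collapsed by molecular identifier and counted per gene with htseq-count, unique reads only. The methods name build GRCh38, whereas the processing notes name the mouse build GRCm38, and the human build was used here. Neither the strand setting nor the filter that left 18460 genes was found in the study's methods or labels. The deposited tables hold these counts, not normalized, and a normalized table was not used. From the counts, edgeR (4.0.16, R 4.3.3) gave TMM-scaled CPM and quasi-likelihood tests in each line (a count of at least 30 in 3 libraries), and a fit to both lines for the comparison of lines. Calls needed an adjusted p up to 0.05 and a log2 fold change past 0.5 in either direction. Standard errors were derived from the fold change and its F statistic. The study used limma-voom with an unnamed sequencing batch, which the labels do not give.

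Members and lists were chosen with earlier results of these data known. Named with all values were called genes of the list with the largest changes, and HIF1A, EPAS1, EGLN1 and EGLN3. From other lists, called genes with the largest change with SOANAP-SP were named, except 1 that is not reported here. Groups and replicate numbers came from the labels, and nothing says whether the cocultures used separate cell passages, so p-values measure the spread between these cocultures only. Same-numbered libraries of SOAβPIN-SP and SP in A549 cells deviated together from their group means. The correlations were 0.26 to 0.395 in all 3 pairs. These pairs joined different experiments, so the replicate number was not taken as a pairing in the main tests. Alternatives were limma-voom (3.58.1), DESeq2 (1.42.0), library totals alone, no filter, a CPM minimum of 30, the compared groups alone, a replicate block and each library left out. Scripts were tested on simulated data. Gene positions are from GENCODE 44 on GRCh38. Counting intervals and floors cover counting error only.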

Additional observations from a re-analysis of the deposited data

Results flagged for a closer look

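The responses of the 2 lines differed, by the interaction of line and exposure (edgeR, all values the log2 fold change in EA.hy926 cells minus that in A549 cells), for 6 genes with SOANAP-SP: PFKFB3 (1.78), KDM3A (1.27), SLC2A3 (1.20), ENO2 (0.89), NDRG1 (0.76) and SLC16A3 (-0.51). With SOAβPIN-SP they differed for ANKRD37 (1.82), PFKFB3 (1.46), KDM3A (1.27), SLC2A3 (1.10), ENO2 (0.98) and NDRG1 (0.67). With SP they differed for PFKFB3 (0.90), KDM3A (0.88), ENO2 (0.77) and NDRG1 (0.65).

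For the 15 genes given by library or group in the text, a single library lay far from the other 3 of its group in 8 of 81 groups of 4, where chance gives about 1 in 20. Over all 36 genes, where tested, this was so in 14 of 204 groups. In EA.hy926 cells these were SOANAP-SP replicate 3 for BHLHE40 (35.1 CPM) and HK2 (76.3 CPM), SOAβPIN-SP replicate 1 for ANKRD37 (9.26 CPM), and CA replicate 4 for ANKRD37 (9.501 CPM) and EPAS1 (298 CPM). In A549 cells they were SOANAP-SP replicate 4 for EPAS1 (294 CPM), and CA replicate 2, the library with endothelial reads, for EGLN1 (225 CPM) and PFKFB3 (472 CPM).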

How the results depend on the processing

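Fold changes were followed for the genes called against CA, and none of these changed direction under any alternative. A count of called genes has no direction to change, and some counts fell to 0 or rose from 0. Of 128 counts under other settings 115 stayed within 1.5 times, and of 233 fold changes of called genes 225 stayed called. For SOAβPIN-SP against SP in A549 cells, with 0 called genes, limma-voom gave 1, DESeq2 2, a CPM minimum of 30 gave 1 and the compared groups alone 1. Library totals alone gave 1 in place of 2 for SOANAP-SP against SOAβPIN-SP and 5 in place of 3 for SOANAP-SP against SP in A549 cells, and 0 in place of 1 for SOANAP-SP against SP in EA.hy926 cells, with the median of all genes at -0.12, -0.15 and -0.04. A CPM minimum of 30 tests fewer genes and gave 2 in place of 4 for SP against CA and 0 in place of 2 for SOANAP-SP against SOAβPIN-SP in A549 cells, 0 in place of 1 for SOANAP-SP against SP in EA.hy926 cells and 16 in place of 26 between the lines under CA. The replicate block gave 2 genes for SOAβPIN-SP against SP and 2 in place of 4 for SP against CA in A549 cells (HIF1A and ANKRD37 not called). In both comparisons the same-numbered libraries came from different experiments. The other counts stayed within 1.5 times.

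With 1 library left out, A549 counts were 4 to 5, 3 to 5 and 1 to 4 for SOANAP-SP, SOAβPIN-SP and SP against CA, 1 to 3 for SOANAP-SP against SOAβPIN-SP, 2 to 4 for SOANAP-SP against SP and 0 to 2 for SOAβPIN-SP against SP. EA.hy926 counts were 5 to 6, 5 to 7 and 5 to 7 against CA, 0 to 1 for SOANAP-SP against SOAβPIN-SP, 0 to 1 for SOANAP-SP against SP and 0 for SOAβPIN-SP against SP. Between the lines they were 5 to 6, 6 and 3 to 4 for the responses and 21 to 27 under CA. CA9 and ANKRD37 in A549 cells rest on few reads, which limits their precision.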
